A study of Saccharomyces cerevisiae with 4 samples.

Results

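The 10 genes described here encode amino acid permeases of the plasma membrane of budding yeast (Saccharomyces cerevisiae): GAP1, AGP1, GNP1, BAP2, BAP3, TAT1, TAT2, DIP5, MUP1 and HIP1. They were taken by name from the 5816 genes of the deposited gene tables, and 10 of 10 passed the filter on low counts. Total RNA had been sequenced from 2 libraries of a strain with a deletion of CHD1, which encodes a chromatin-remodelling ATPase, and from 2 libraries of the wild-type strain. Both strains were in the BY4741 background, a laboratory strain of mating type a, and both grew in YPD, which is yeast extract, peptone and glucose, at 30 °C to an optical density at 600 nm between 0.6 and 0.8. No other allele, agent or time point that distinguished the groups is given in the sources used here. Whether the deletion strain is a single clone is not given in the sources used here.

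Yeast adjusts its amino acid uptake to the nitrogen it finds. While good nitrogen sources are present, nitrogen catabolite repression holds the GATA activators Gln3 and Gat1 out of the nucleus, and genes they drive, with GAP1 as the best-known transporter among them, are kept low. Amino acids outside the cell are sensed by the Ssy1-Ptr3-Ssy5 (SPS) complex, which releases the transcription factors Stp1 and Stp2 by cleavage, and these induce a second set of permease genes that includes AGP1, GNP1, BAP2, BAP3, TAT1, TAT2 and DIP5. YPD holds both amino acids and other good nitrogen sources.

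The upstream DNA of GAP1 and AGP1 is shown first because these are the genes of the 10 that passed the test between the genotypes. They were also the only ones among the 10 with GATAAG, a form of the GATA-factor site, in the 600 bases before the start codon. The shorter GATAA was not counted. On 1 strand or the other it also occurs upstream of TAT1 and DIP5, between 530 and 231 bases before the ATG. It was not looked for in the full window of any gene. The stretches run from 530 to 231 bases before the ATG on the strand of the gene, in the R64 assembly of RefSeq. Capitals mark GATAAG or its reverse complement CTTATC.
GAP1, chrXI:514533-514832, plus strand: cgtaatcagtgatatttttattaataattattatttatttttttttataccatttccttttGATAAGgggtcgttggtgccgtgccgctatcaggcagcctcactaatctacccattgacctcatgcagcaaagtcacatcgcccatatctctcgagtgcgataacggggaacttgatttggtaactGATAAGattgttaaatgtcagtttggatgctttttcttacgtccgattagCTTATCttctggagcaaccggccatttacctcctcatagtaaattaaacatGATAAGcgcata
AGP1, chrIII:78150-78449, minus strand: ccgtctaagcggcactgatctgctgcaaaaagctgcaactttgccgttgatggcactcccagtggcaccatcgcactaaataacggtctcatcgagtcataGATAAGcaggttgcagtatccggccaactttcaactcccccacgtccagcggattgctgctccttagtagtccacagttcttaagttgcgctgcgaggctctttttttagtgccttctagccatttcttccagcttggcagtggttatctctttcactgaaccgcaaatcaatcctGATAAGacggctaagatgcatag

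Counting both strands of the 600 bases, GAP1 held 5 matches to GATAAG, beginning 549, 469, 343, 293 and 242 bases before the ATG, and AGP1 held 2, at 429 and 253 bases. The other 8 permease genes held 0. Of 5788 genes with a full window, 26.8% held at least 1 match, 5.01% at least 2 and 0.726% at least 3. A second sequence searched was CGGCTC or GAGCCG, a form of the CGGC core that Stp1 binds, which 8.0% of all genes held at least once. BAP3 held 2 matches, and BAP2 and MUP1 held 1 each, shown here in capitals with 12 bases on either side, on the strand of the gene.
BAP2, chrII:376078-376107, minus strand: tgccgcttctcaCGGCTCatattttgtggg
BAP3, chrIV:550965-550994, minus strand: tagccgtgcatgCGGCTCcgcgaaaagagc
BAP3, chrIV:550920-550949, minus strand: tacctgaacttcGAGCCGcgatcaacgaaa
MUP1, chrVII:598911-598940, plus strand: ggagtgtcacttCGGCTCcgtaagccggcg
The matches of BAP2 and the farther one of BAP3 begin 405 and 406 bases before the ATG, nearly the same distance in the 2 branched-chain permease genes. TGACTC or GAGTCA, the core that the amino acid starvation factor Gcn4 binds, was found 2 times each in MUP1 and HIP1 and 1 time each in BAP2 and AGP1, and 15.6% of all genes held at least 1. No match of 1 of these sequences overlapped a match of another in the permease genes. A match describes these letters in this window and is not evidence of binding.

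The libraries held 4117998 and 2597514 gene reads in deletion replicates 1 and 2, and 2145684 and 2824770 in wild-type replicates 1 and 2. The 10 permease genes took 4079 and 2609 of these in the deletion libraries, against 2219 and 3107 in the wild-type libraries, or between 0.0991% and 0.110% of gene reads in each library. CHD1 itself had 7 and 3 reads in the deletion libraries and 211 and 396 in the wild-type libraries. Levels are given as counts per 1e6 reads (CPM) on library sizes scaled with TMM factors. Each gene was tested with edgeR's quasi-likelihood method, and p-values were adjusted by Benjamini-Hochberg over all 5488 genes tested, with a threshold of 0.05. Between replicates, counts varied more than sampling alone allows, by a chi-square over its degrees of freedom of 2.46 in the deletion and 6.08 in wild type. Separate cultures for the replicates are not stated, so the spread behind the p-values may be technical. Of the strain's auxotrophic markers, MET17 had 0 reads in each library and LEU2 had 0 and 2 in the deletion libraries and 0 and 2 in the wild-type libraries. HIS3 had 104 and 79 reads in the deletion libraries and 69 and 99 in the wild-type libraries, or 24.2 and 29.5 CPM against 34.1 and 35.6 CPM, without overlap (log2 fold change -0.40, edgeR adjusted p = 0.192). URA3, which BY4741 should lack, had 82 and 52 reads in the deletion libraries and 29 and 43 in the wild-type libraries. That is 19.1 and 19.4 CPM against 14.3 and 15.5 CPM, without overlap (log2 fold change 0.36, edgeR adjusted p = 0.369). The URA3 reads were not followed further. Of 12 strain and mating type markers, 8 were tested, with CHD1 lower and the a-factor gene MFA2 higher (log2 fold change 0.48, edgeR adjusted p = 0.0481). Of all genes tested, 4.74% were called. DESeq2 and limma-voom each called 1 gene of this list. The other a-cell genes did not pass, with log2 fold changes of 0.23 for STE2, 0.05 for MFA1, -0.05 for BAR1 and -0.09 for STE6.

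Among the 10 permease genes, GAP1 and AGP1 fell in the cells without CHD1, and none rose. GAP1 was lower by 44.6% and AGP1 by 33.6%. DIP5 had a value as low as that of AGP1 but did not pass the test, and BAP3, TAT2 and MUP1 had log2 fold changes between -0.06 and 0.02. The 2 calls among 10 genes stand beside a background of 260 calls among all genes tested, or 4.74%, of which 168 genes were lower in the deletion (3.06%) and 92 higher (1.68%). By limma-voom 2 of the 10 were called, against 4.94% of all genes tested. By DESeq2 0 were called, against 5.79% of the genes to which it gave an adjusted p. GAP1 and DIP5 got no adjusted p from DESeq2, so neither could be called by it. An unadjusted p under 0.05 was found for 5 of the 10, against 19.6% of all genes tested. For 6 of the 10 genes both deletion libraries lay below both wild-type libraries, and for 0 of the 10 they lay above, whereas over all genes tested 24.4% lay below and 24.9% above. The permease genes had a median log2 fold change of -0.21, against 0.004 over all genes tested, and 9 of 10 had a value below 0, against 49.4% of all genes tested. With the stricter filter, and with the replicate block, 8 of 10 were below 0. With 1 library left out it was 9 of 10 without wild-type replicate 1 and 8 of 10 otherwise. Total gene counts in place of TMM moved the median of all genes by 0.10. Then 7 of 10 were below 0, and the median of the 10 was -0.11, against 0.11 over all genes.

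GAP1 encodes the general amino acid permease, which takes up nearly every amino acid and is a classic target of nitrogen repression (YKR039W, chromosome XI, 515063 to 516871). It was counted 77 and 59 times in the deletion libraries and 61 and 110 times in the wild-type libraries, which is 17.9 and 22.05 CPM against 30.1 and 39.6 CPM. Both deletion libraries lay below both wild-type libraries, and the gap between the groups, from 22.05 to 30.1 CPM, was narrower than the distance between the wild-type libraries. GAP1 averaged 19.99 ± 2.92 CPM in the deletion and 34.9 ± 6.70 CPM in wild type (SD, n = 2 each), with a log2 fold change of -0.85 ± 0.19 (SE; 95% interval -1.25 to -0.45; edgeR adjusted p = 0.0146). At these counts sampling alone gives an error of 11.4% and 13.0% in the deletion libraries and of 12.8% and 9.53% in the wild-type libraries. Leaving out deletion replicate 1 gave -0.68 (adjusted p = 0.148) and leaving out wild-type replicate 2 gave -0.61 (adjusted p = 0.102), so the call ended in both cases. DESeq2 gave a log2 fold change of -0.83 and an unadjusted p of 0.00584 for GAP1 but no adjusted p.

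**Figure D1:**
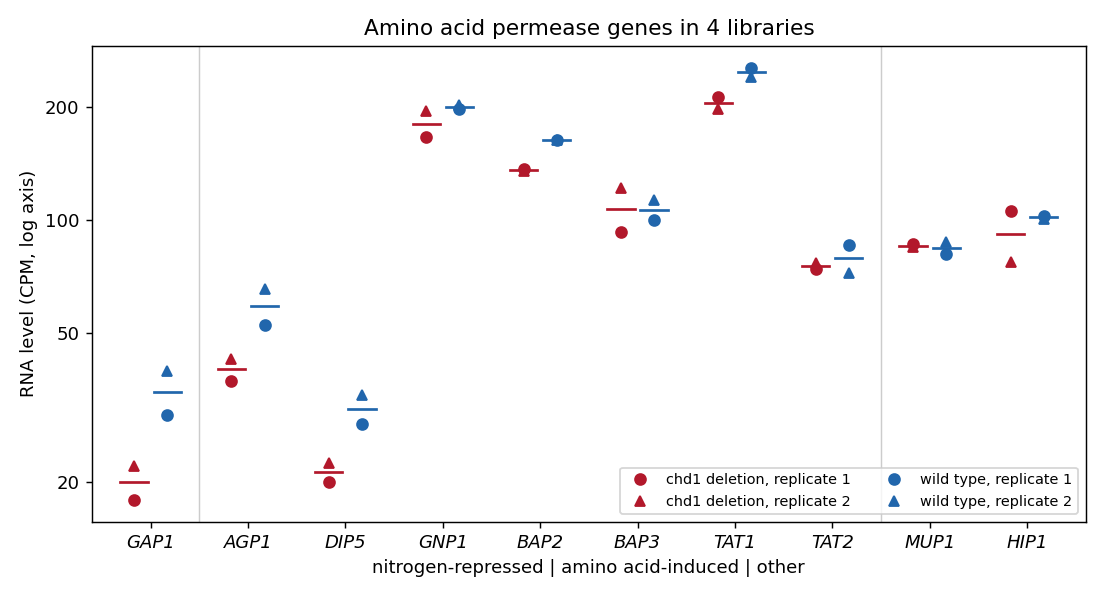
RNA level of each permease gene in CPM (log axis) in each of the 4 libraries; red is the chd1 deletion, blue is wild type, circles are replicate 1, triangles replicate 2, and short lines are group means. Both deletion points lie under both wild-type points for GAP1, AGP1, GNP1, BAP2, TAT1 and DIP5, and the groups overlap for BAP3, TAT2, MUP1 and HIP1.

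Of the 7 amino acid-induced permease genes, AGP1 fell and 6 did not pass, where 3.06% of all genes tested were lower. The log2 fold change was below 0 for 7 of 7, with a median of -0.27, against 49.4% of all genes tested. With total gene counts BAP3 and TAT2 were above 0, and BAP3 also with the stricter filter and the replicate block. With 1 library left out, BAP3 was above 0 without deletion replicate 1 (0.19) and without wild-type replicate 2 (0.09). TAT2 was above 0 without wild-type replicate 1 (0.06). Both deletion libraries lay below both wild-type libraries for 5 of the 7 (24.4% of all genes tested), and 4 had an unadjusted p under 0.05 (19.6% of all genes tested). AGP1 encodes a permease of broad range with a preference for asparagine and glutamine (YCL025C, chromosome III, 76018 to 77919). It had 37.2 and 42.6 CPM in the deletion libraries and 52.3 and 65.5 CPM in the wild-type libraries, from 160 and 114 against 106 and 182 reads. The groups did not overlap. The log2 fold change was -0.59 ± 0.15 (SE; 95% interval -0.91 to -0.28; edgeR adjusted p = 0.0297). The call was lost with total gene counts in place of TMM (adjusted p = 0.0820), with DESeq2 (adjusted p = 0.140), without deletion replicate 1 (adjusted p = 0.244) and without wild-type replicate 2 (adjusted p = 0.204).

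GNP1, the closest relative of AGP1 among the 10, encodes the high-affinity glutamine permease (YDR508C, chromosome IV, 1466453 to 1468444). It had 166 and 195 CPM in the deletion libraries, against 197 and 203 CPM in the wild-type libraries. The highest deletion library lay just under the lowest wild-type library, and the log2 fold change of -0.15 did not pass (95% interval -0.39 to 0.08; edgeR adjusted p = 0.479). The coding sequences of AGP1 and GNP1 are 71.2% identical over 1884 aligned bases, and 12 of 1867 windows of 36 bases in AGP1 occur in GNP1, or 0.643%. No other permease gene of the 10 shared a window of 36 bases with another coding sequence. The ratio of AGP1 to GNP1 in reads per kb was 0.249 and 0.242 in the deletion libraries and 0.294 and 0.359 in the wild-type libraries, a difference of -0.40 on the log2 scale, with both deletion libraries below both wild-type libraries. The smallest p that an exact permutation test of 2 libraries against 2 can give is 0.333, and no other test of this ratio was run.

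DIP5 encodes the permease for the acidic amino acids glutamate and aspartate (YPL265W, chromosome XVI, 41043 to 42869). Its 86 and 60 reads in the deletion libraries and 58 and 95 reads in the wild-type libraries were the fewest of the amino acid-induced genes. They correspond to 20.02 and 22.4 CPM in the deletion and 28.6 and 34.2 CPM in wild type, and the groups did not overlap. The log2 fold change of -0.60 was as low as that of AGP1, but its SE was larger at 0.18, and the adjusted p of edgeR's test was 0.0657. DIP5 was called lower without wild-type replicate 1 (adjusted p = 0.00911), and in none of the other alternatives that gave it an adjusted p. Its upstream 600 bases held 0 matches to GATAAG or to CGGCTC.

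**Figure D2:**
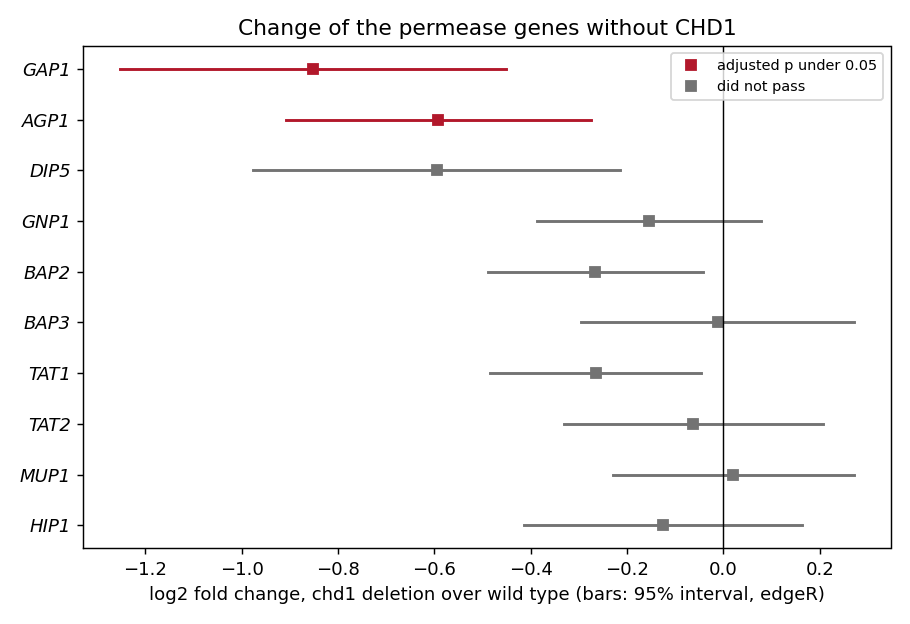
Log2 fold change of each permease gene, chd1 deletion over wild type, with the 95% interval of edgeR's quasi-likelihood fit; red marks an adjusted p under 0.05 and grey the rest. The intervals of GAP1, AGP1, DIP5, BAP2 and TAT1 lie below 0, and those of the other 5 genes include it.

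BAP2 and TAT1 are neighbours on chromosome II. BAP2 encodes a permease for the branched-chain amino acids (YBR068C, 373861 to 375690), and TAT1 one for tyrosine, tryptophan and branched-chain amino acids (YBR069C, 376574 to 378433); they lie in the same direction, 883 bases apart. BAP2 had 136 and 135 CPM in the deletion libraries and 163 and 163 CPM in the wild-type libraries, so that replicates were far closer to each other than the groups. Sampling alone gives an error between 4.1% and 5.5% at its counts, more than its replicates differed, so their closeness does not measure reproducibility. TAT1 had 213 and 197 CPM in the deletion libraries and 255 and 240.0 CPM in the wild-type libraries, again with no overlap. Their log2 fold changes were both -0.27, with 95% intervals of -0.49 to -0.04 for BAP2 and -0.48 to -0.05 for TAT1, but neither passed over all genes (edgeR adjusted p = 0.162 for BAP2 and 0.155 for TAT1). The ratio of TAT1 to BAP2 in reads per kb was 1.55 and 1.45 in the deletion libraries and 1.55 and 1.45 in the wild-type libraries, and so was alike in both genotypes. An annotated antisense RNA gene, TBRT, overlaps TAT1 on the opposite strand. Whether reads were counted by strand is not given in the sources used here, so its reads and those of TAT1 cannot be told apart.

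BAP3, a second branched-chain permease gene (YDR046C, chromosome IV, 548762 to 550576), had 92.6 and 122 CPM in the deletion libraries and 99.7 and 113 CPM in the wild-type libraries. The wild-type values lay inside the range of the deletion values. The log2 fold change was -0.01 (95% interval -0.30 to 0.27; edgeR adjusted p = 0.972). BAP3 and BAP2 are 70.0% identical over 1795 aligned bases of coding sequence. The ratio of BAP2 to BAP3 in reads per kb was 1.41 and 1.06 in the deletion libraries and 1.56 and 1.38 in the wild-type libraries, which overlap, so a difference between the pair was not detectable with these libraries.

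TAT2 encodes the high-affinity permease for tryptophan and tyrosine, on which tryptophan auxotrophs depend (YOL020W, chromosome XV, 286172 to 287950). It had 73.8 and 77.0 CPM in the deletion libraries and 85.9 and 72.3 CPM in the wild-type libraries, with a log2 fold change of -0.06 (95% interval -0.33 to 0.21; edgeR adjusted p = 0.846). The deletion values lay between the wild-type values. HIP1, the histidine permease gene (YGR191W, chromosome VII, 880420 to 882231), had 106 and 77.4 CPM in the deletion libraries and 103 and 100.4 CPM in the wild-type libraries. Its deletion replicates differed more from each other than the group means did, and the log2 fold change of -0.13 did not pass (95% interval -0.41 to 0.16; edgeR adjusted p = 0.673). MUP1, the high-affinity methionine permease gene (YGR055W, chromosome VII, 599417 to 601141), had 86.4 and 84.5 CPM in the deletion libraries and 81.0 and 87.1 CPM in the wild-type libraries. Its log2 fold change was 0.02 (95% interval -0.23 to 0.27; edgeR adjusted p = 0.948). MUP1 and HIP1 are not counted here among the SPS-induced genes.

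GAP1 was then set against the amino acid-induced permease genes within each library, which removes the scaling between libraries. Per kb of gene, GAP1 reads were 0.236 and 0.265 times the geometric mean of the 7 amino acid-induced genes in the deletion libraries, and 0.322 and 0.404 times in the wild-type libraries. The mean log2 ratio was -2.0 in the deletion and -1.47 in wild type, a difference of -0.53. The median of the differences from each of the 7 genes was also -0.53. With the gene of median level in each library in place of the geometric mean the difference was -0.80, but that gene was BAP3 in 4 of 4 libraries, so this is the value against BAP3 alone. GAP1 was lower relative to each of the other 9 permease genes, with both deletion libraries below both wild-type libraries in 9 of 9 ratios. These ratios share GAP1, whose own CPM separated the groups, and are not independent of each other. The same count against all genes was not taken, so the 9 of 9 cannot be called particular to permease genes. The difference of the mean log2 ratios was smallest against DIP5 (-0.23) and AGP1 (-0.24), and among the amino acid-induced genes it was largest against BAP3 (-0.80). An exact permutation p for 2 libraries against 2 cannot fall below 0.333, and no other test was run of whether GAP1 changed more than the amino acid-induced genes.

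**Figure D3:**
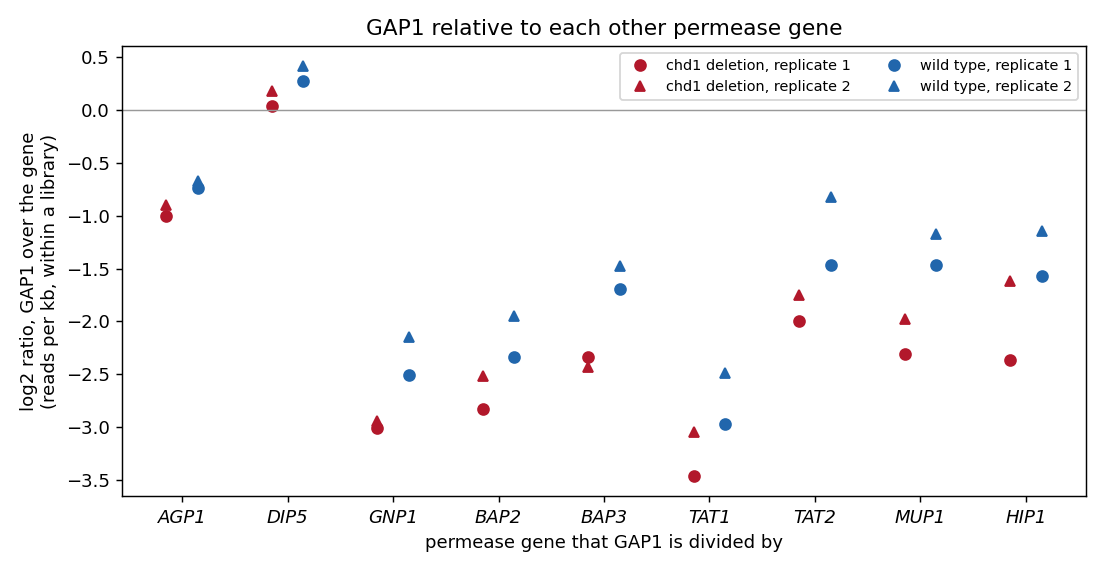
Log2 ratio of GAP1 to each of the other 9 permease genes, in reads per kb within a library, with the chd1 deletion in red and wild type in blue (circles replicate 1, triangles replicate 2). Both deletion points lie under both wild-type points for each gene. The group means are closest for DIP5 (-0.23) and AGP1 (-0.24), and GAP1 is above 0 only against DIP5.

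The order of the levels per kb was the same in both genotypes apart from MUP1 and HIP1, which changed places. In the deletion, TAT1 was highest at 97.2 CPM per kb, followed by GNP1 at 80.3, BAP2 at 65.0, BAP3 at 53.7, MUP1 at 45.0, HIP1 at 41.0, TAT2 at 37.3, AGP1 at 19.7, GAP1 at 10.2 and DIP5 at 9.48 CPM per kb. In wild type the order was TAT1 at 117 CPM per kb, GNP1 at 88.9, BAP2 at 78.1, BAP3 at 53.3, HIP1 at 45.4, MUP1 at 44.3, TAT2 at 39.2, AGP1 at 29.1, GAP1 at 17.9 and DIP5 at 14.03 CPM per kb. Neighbours whose libraries overlapped were MUP1 and HIP1, HIP1 and TAT2, and GAP1 and DIP5 in the deletion, and HIP1 and MUP1 in wild type. The median of all genes tested was 27.1 and 27.4 CPM per kb in the deletion libraries and 26.6 and 26.8 CPM per kb in the wild-type libraries. GAP1 stood at the 16.4th percentile of all genes tested in the deletion and at the 35.6th in wild type, AGP1 at the 38.6th in the deletion and at the 53.1st in wild type, and DIP5 at the 14.3rd in the deletion and at the 27.2nd in wild type. The 7 other permease genes lay between the 61.2nd and the 83.8th percentile in the deletion and between the 63.0th and the 85.9th in wild type. The genes with the lowest levels were thus those with the lowest log2 fold changes, and they are also those with the fewest reads and the widest intervals.

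The 3 genes whose pattern over the 4 libraries lay nearest to that of GAP1, by Euclidean distance of centred log2 CPM, were APA2, GSH1 and LEU1. APA2, which encodes an enzyme that breaks down diadenosine tetraphosphate, lay at a distance of 0.123, with 12.3 and 16.1 CPM in the deletion libraries and 21.7 and 25.9 CPM in the wild-type libraries. GSH1, the first gene of glutathione synthesis, lay at 0.161, and LEU1, a gene of leucine synthesis, at 0.183. A distance over 4 libraries is a description of these libraries only.

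Of the SPS sensing pathway, 0 of 12 genes passed edgeR's test in either direction, where 4.74% of all genes tested did. An unadjusted p under 0.05 was found for 2 of the 12, against 19.6% of all genes tested. Both counts are near these shares. Limma-voom called 0. DESeq2 also called 0, but it gave no adjusted p to SSY1, PTR3, SSY5, STP1 or STP2 and so could not call them. The median log2 fold change was -0.03, and between -0.14 and 0.05 with 1 library left out. SSY1, the permease-like sensor itself, had 30.5 and 25.8 CPM in the deletion libraries and 31.1 and 27.7 CPM in the wild-type libraries. The log2 fold changes of its partner genes were 0.04 for the scaffold gene PTR3 and 0.18 for the protease gene SSY5. For the transcription factor genes they were -0.03 for STP1 and 0.45 for STP2. STP2 had 31.7 and 32.9 CPM in the deletion libraries and 23.7 and 23.4 CPM in the wild-type libraries, without overlap (edgeR adjusted p = 0.142). The other gene with an unadjusted p under 0.05 was ASI1, which encodes an inner nuclear membrane protein that restrains Stp1 and Stp2, at -0.31 (edgeR adjusted p = 0.132). STP2 and ASI1 are named as such after their values were seen.

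PTR2, an SPS target outside the 10 genes that encodes the transporter of small peptides, was higher in the deletion. It had 63.1 and 55.3 CPM in the deletion libraries and 27.2 and 29.5 CPM in the wild-type libraries. It rose by 1.07 ± 0.15 on the log2 scale (SE; edgeR adjusted p = 2.6e-04), and it was called higher in 11 of 11 alternatives. PTR2 was the 1 gene called among 9 tested of 11 further plasma-membrane transporter genes for amino acids and peptides, of which 0 fell and 8 did not pass, where 1.68% of all genes tested were higher. An unadjusted p under 0.05 was found for 6 of the 9 (19.6% of all genes tested), DESeq2 called 1 and limma-voom called 2, PTR2 and MUP3. Their median log2 fold change of 0.04 rested on single libraries: leaving out replicate 1 or 2 of the deletion gave -0.05 or 0.18, and leaving out replicate 1 or 2 of wild type gave 0.15 or 0.62. Below the threshold, the lysine permease gene LYP1 had 82.2 and 78.9 CPM in the deletion libraries and 102 and 109 CPM in the wild-type libraries (-0.39, edgeR adjusted p = 0.0614). The low-affinity methionine permease gene MUP3 had 7.68 and 8.22 CPM in the deletion libraries and 1.97 and 3.96 CPM in the wild-type libraries (1.33, edgeR adjusted p = 0.0530), from 33 and 22 deletion reads and 4 and 11 wild-type reads. LYP1 and MUP3 are named after their values were seen. PUT4 and AGP3 had too few reads to be tested.

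Among the GATA factor genes and URE2, 0 of 4 tested passed edgeR's test, where 4.74% of all genes tested did. An unadjusted p under 0.05 was found for 1 of the 4, against 19.6% of all genes tested. Limma-voom called 0. DESeq2 also called 0, but it gave no adjusted p to GLN3 or GAT1 and so could not call them. GLN3, the activator gene, had 29.1 and 23.2 CPM in the deletion libraries and 31.6 and 35.3 CPM in the wild-type libraries (log2 fold change -0.34, edgeR adjusted p = 0.302). GAT1, the second activator gene, had a log2 fold change of 0.07, and the repressor gene GZF3 one of -0.35 (edgeR adjusted p = 0.191). DAL80, the repressor gene that is itself induced when nitrogen is poor, had 1 and 0 reads in the deletion libraries and 0 and 0 in the wild-type libraries. Of 8 other nitrogen-repressed transporter genes, 6 were tested and 0 passed edgeR's test, beside the same 4.74%. An unadjusted p under 0.05 was found for 0 of the 6, beside the same 19.6%. Lists of 4 and 6 genes are too small to tell 0 calls from these shares. Limma-voom called 0 of the 6 transporter genes. DESeq2 also called 0, but their levels were near or below that of STP1, to which it gave no adjusted p. The 0 of DESeq2 is therefore not read as a result. The median log2 fold change of the 6 genes was -0.27. The ammonium permease gene MEP2 had 9.54 and 8.60 CPM in the deletion libraries and 12.3 and 11.2 CPM in the wild-type libraries (-0.35, 95% interval -0.90 to 0.20), and is named after its values were seen. A fall of the size seen for GAP1 lies inside the interval of MEP2, so for MEP2 it could not be told apart from no change at this depth. It also lies inside the intervals of DUR3 (-1.09 to 0.08) and UGA4 (-1.02 to 0.27). The intervals of MEP1 (-0.46 to 0.48), MEP3 (-0.52 to 0.12) and DAL5 (-0.61 to 0.31) do not reach it. These other tested genes of the list are also named after their values were seen.

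Of 21 genes for the delivery and turnover of permeases, 1 fell and 20 did not pass, with a median log2 fold change of 0.03. That is near the share of all genes tested that were called, 4.74%, and 2 of the 21 had an unadjusted p under 0.05, against 19.6% of all genes tested. DESeq2 called 0 of those to which it gave an adjusted p, and limma-voom called 1 of the 21. The gene that fell was NPR1, which encodes a protein kinase that keeps Gap1 at the plasma membrane. NPR1 had 59.6 and 60.5 CPM in the deletion libraries and 73.6 and 109 CPM in the wild-type libraries, and fell by 0.63 on the log2 scale (SE 0.15; edgeR adjusted p = 0.0235). The wild-type libraries differed from each other more than the lower of them differed from the deletion. Without wild-type replicate 2 its log2 fold change was -0.28 (adjusted p = 0.339). NPR1 also lost its call with DESeq2 (adjusted p = 0.0644) and with total gene counts. Its upstream 600 bases held 1 match to GATAAG, as did those of PTR2. SHR3, whose product helps permeases leave the endoplasmic reticulum, had 307 and 299.7 CPM in the deletion libraries and 373 and 353 CPM in the wild-type libraries (-0.26, edgeR adjusted p = 0.148), and is named after its values were seen.

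Across the alternatives, the log2 fold change of GAP1 lay between -1.01 and -0.61, that of AGP1 between -0.73 and -0.40 and that of DIP5 between -0.70 and -0.44. GAP1 was called lower in 8 of the 10 alternatives that gave it an adjusted p, AGP1 in 7 of 11 and DIP5 in 1 of 10. Leaving out deletion replicate 1 or wild-type replicate 2 left 0 of the 10 permease genes called. Those are the deeper library of the deletion, where GAP1 was lowest, and the wild-type library where GAP1, AGP1 and DIP5 were highest.

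**Figure D4:**
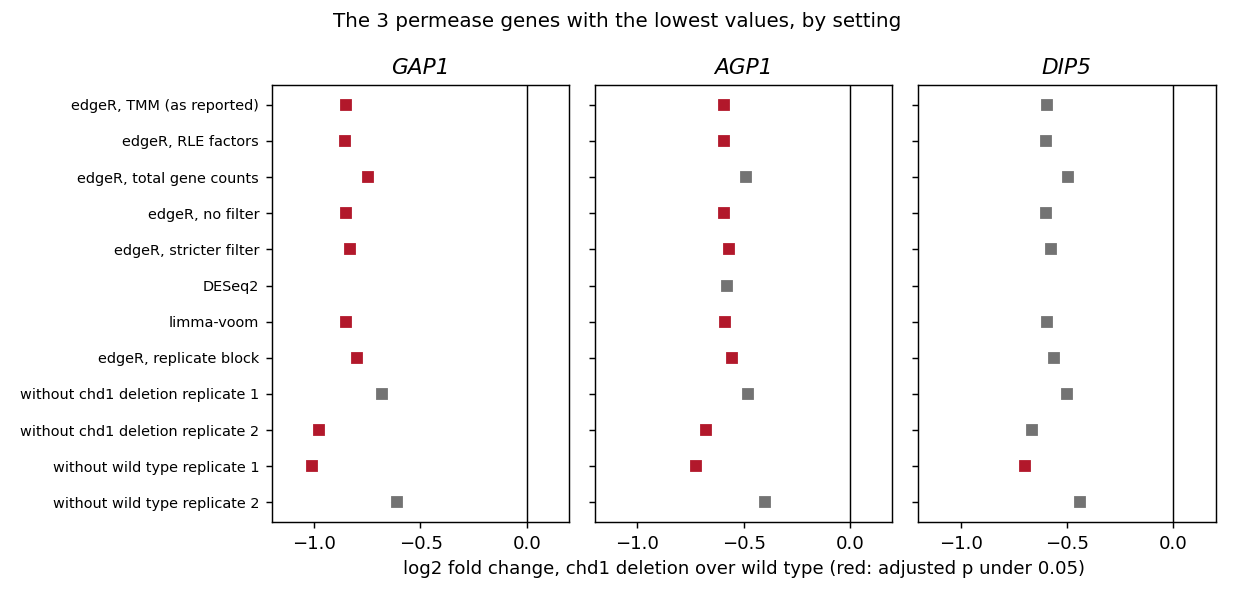
Log2 fold change of GAP1, AGP1 and DIP5, chd1 deletion over wild type, under each setting of the test; red squares have an adjusted p under 0.05, grey squares do not, and no square is drawn where DESeq2 gave no adjusted p. The values stay between -1.01 and -0.40, and the squares of GAP1 and AGP1 turn grey without deletion replicate 1 and without wild-type replicate 2, those of AGP1 also with total gene counts and with DESeq2.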

How the data were processed

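Each gene table the authors deposited holds whole-number read counts per gene and a gene length, per the file headers. Per the submitters' processing notes, CASAVA 1.8 and TopHat were used, with build sacCer3; how reads were counted, on which annotation and strand and with what rule for multi-mapping, is not given in the sources used here. A deposited normalized column and the intron tables were not used. Of 5816 gene identifiers, 5813 were found in RefSeq's R64 table, which has the same chromosomes as sacCer3. Coding spans are given 1-based on R64; the authors' gene lengths were used per kb.

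Counts were tested with edgeR 4.0.16 in R 4.3.3 (TMM factors, filterByExpr with a minimum count of 10, and a design of genotype alone). The alternatives were RLE factors, total gene counts, no filter, at least 50 reads in 2 libraries, DESeq2 1.42.0, limma-voom (limma 3.58.1), the replicate number as a block, and each library left out. The test was tried on simulated counts. DESeq2 gave an adjusted p to 2764 genes only, so its counts of called list genes pass over genes without one. SE is the size of the log2 fold change over the square root of F. The members, lists, motifs and tests were chosen with earlier results of these data known. Named were the 10 permeases, list genes past the threshold, the sensor, Stp and GATA factor genes, and the 3 tested genes nearest to GAP1 (0.5 added to CPM); others are marked as named after their values were seen.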

Additional observations from a re-analysis of the deposited data

How the results depend on the processing

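No alternative reversed a called result. The number of permease genes called was 2 and became 1 with total gene counts (GAP1) and 0 with DESeq2, which gave GAP1 and DIP5 no adjusted p; it ranged from 0 to 3 when 1 library was left out. The log2 fold change of GAP1 ranged from -1.01 to -0.61 in those fits, where the lone library of a genotype is assumed to vary like the other pair, and its difference from the 7 amino acid-induced genes, -0.53, from -0.69 to -0.37; with the gene of median level, which was BAP3 in 4 of 4 libraries, it was -0.80, the value against BAP3 alone. Called genes of the pathway lists numbered 2, and 4 with RLE factors, 4 with limma-voom, 5 with the replicate block, 1 with DESeq2 and from 2 to 4 with 1 library left out. Over all genes 260 were called, 92 higher and 168 lower, against 160 with DESeq2, 424 with the replicate block and 133 to 577 with 1 library left out. Total gene counts turned the split to 176 higher and 65 lower and shifted the median of all genes by 0.10 (log2). The differences between replicates 1 and 2 in the deletion and in wild type had a correlation of 0.014 over 5488 genes. Whether libraries of the same number were made together is not given in the sources used here, and this value does not settle it. GAP1 and AGP1 were called with and without the block. GAP1 and DIP5 rest on at most 110 reads in any library, which limits the precision of their values.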

Other observations

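Amino acids are also stored in the vacuole, and the transporters of the vacuolar membrane were examined as a further list. Of 14 such genes 13 were tested and 0 passed edgeR's test, where 4.74% of all genes tested did. An unadjusted p under 0.05 was found for 2 of the 13, against 19.6% of all genes tested. DESeq2 called 0 of those to which it gave an adjusted p. Limma-voom called 1, where it called 4.94% of all genes tested. These counts are near the shares of all genes. The median log2 fold change was -0.07. VBA2, which encodes a vacuolar permease for basic amino acids, had 16.8 and 18.3 CPM in the deletion libraries and 29.6 and 26.3 CPM in the wild-type libraries, without overlap. Its log2 fold change was -0.67 ± 0.19 (SE), and its adjusted p of 0.05004 lay just above the threshold. YPQ2, a vacuolar exporter gene for basic amino acids, had 48.4 and 44.1 CPM in the deletion libraries and 34.6 and 36.3 CPM in the wild-type libraries (0.39, edgeR adjusted p = 0.148). Both genes are named after their values were seen.

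Over all genes tested, those with 2 or more GATAAG matches in the 600 bases before the ATG numbered 261, of which 15 were called lower, or 5.75%, and 6 higher, or 2.30%. Of 1200 genes with 1 match, 39 were called lower (3.25%), and of 4014 genes with 0 matches, 114 (2.84%). The median log2 fold changes were -0.02, 0.002 and 0.008 in the same order. These are counts with no test, and GAP1 and AGP1 are 2 of the 15.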
